A study of Mus musculus with 6 samples.

Results

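The insulin-like growth factor (IGF) axis was read in 10 genes, chosen by name as its ligands (Igf1 and Igf2), receptors (Igf1r and Igf2r) and binding proteins (Igfbp2 to Igfbp7), out of 19938 genes tested. Axin2+/GFP+ cells (3 samples) were set against Axin2-/GFP- cells (3 samples) of the mouse calvarial suture, which are the whole series. All mice carried an Axin2rtTA transgene, which makes the doxycycline-dependent activator under Axin2 control, and a TRE-H2BGFP transgene, whose histone-GFP fusion then marks the nuclei of Axin2-expressing cells, on a mixed background of C57BL/6J, CD-1 and B6CBAF2. Doxycycline was given from postnatal day 25 to postnatal day 28, the age at collection, also to the mice of the GFP- sort, and each sample pooled 6 to 8 mice. Collagenase released the cells, and GFP intensity was the basis of the sort, so that the groups differ in reporter signal and share genotype, drug and tissue. The study calls the positive sort GFP-high.

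IGF1 and IGF2 are secreted growth factors stored in bone matrix. Both act through the receptor tyrosine kinase IGF1R, which signals through insulin receptor substrates to PI3K, AKT and mTOR, while IGF2R binds IGF2 and carries it to lysosomes. The binding proteins hold IGFs in the extracellular space, where they limit access to the receptor or deliver the ligand after proteolysis, and in bone IGFBP4 is known mainly as an inhibitor and IGFBP5 as a matrix-bound form.

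Value distributions differed between the sorts. The array median of the log2 values was 2.73 to 2.74 in Axin2+/GFP+ and 2.61 to 2.62 in Axin2-/GFP- samples. The upper quartile was 3.72 to 3.76 in Axin2+/GFP+ and 3.97 to 4.0 in Axin2-/GFP- samples, and the median change over all genes was 0.14 on the log2 scale. Whether all arrays were normalized together is not given, and the part of array scaling in these differences was not tested. Background was read from 1190 genes of olfactory and vomeronasal receptors, whose median log2 level was 1.80 in Axin2+/GFP+ and 1.46 in Axin2-/GFP- cells, with a median change of 0.30. Axin2 itself had a mean log2 level of 2.83 in Axin2+/GFP+ and 2.27 in Axin2-/GFP- cells, which did not pass the test (limma adjusted p = 0.0802). Of 18 measured suture mesenchyme markers 7 were higher and 1 was lower, and their summed linear level was 2788 to 3968 in Axin2+/GFP+ and 1007 to 1385 in Axin2-/GFP- samples. Blood cell genes were present in both sorts. Of 14 neutrophil markers 13 were higher, with sums of 22077 to 23551 in Axin2+/GFP+ and 3182 to 10124 in Axin2-/GFP- samples, and of 11 B-lineage markers 11 were lower, with sums of 82.1 to 93.0 in Axin2+/GFP+ and 1650 to 2123 in Axin2-/GFP- samples. The part of these cells in the IGF values was not tested. The samples of a sort are labelled as biological replicates, and p-values measure the spread between these pools.

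None of the 10 IGF genes passed an adjusted p of 0.05 in limma, in either direction, where 16.0% of all genes did (4.64% higher and 11.4% lower). At an unadjusted p under 0.05 limma called 3 higher (Igfbp4, Igf1r and Igfbp5) and 0 lower, against 16.3% higher and 17.6% lower among all genes. By the same measure 257 of the 1190 background receptor genes were higher and 2 lower. A change at least as high as that of Igfbp4 was reached by 0.840% of them, of Igf1r by 10.5% and of Igfbp5 by 14.6%. The methods' t-test called 0 higher and 1 lower (Igf2r) at that threshold, against 2952 higher and 2747 lower of all 19938 genes. Changes ran from -0.25 to 1.16 on the log2 scale with a median of 0.20, against 0.14 over all genes. The median over all genes depended on the signal. It was 0.25 at a mean log2 value under 3, where 2 of the 10 IGF genes fall. From 3 to 5, where 5 fall, it was -0.19, and at 5 or more, where 3 fall, it was -0.57. The groups did not overlap for 2 of the 10 genes, Igfbp5 and Igf2r, against 40.9% of all genes (23.1% higher and 17.8% lower). In these bulk samples, fewer cells of a type and less RNA per cell cannot be told apart.

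**Figure D1:**
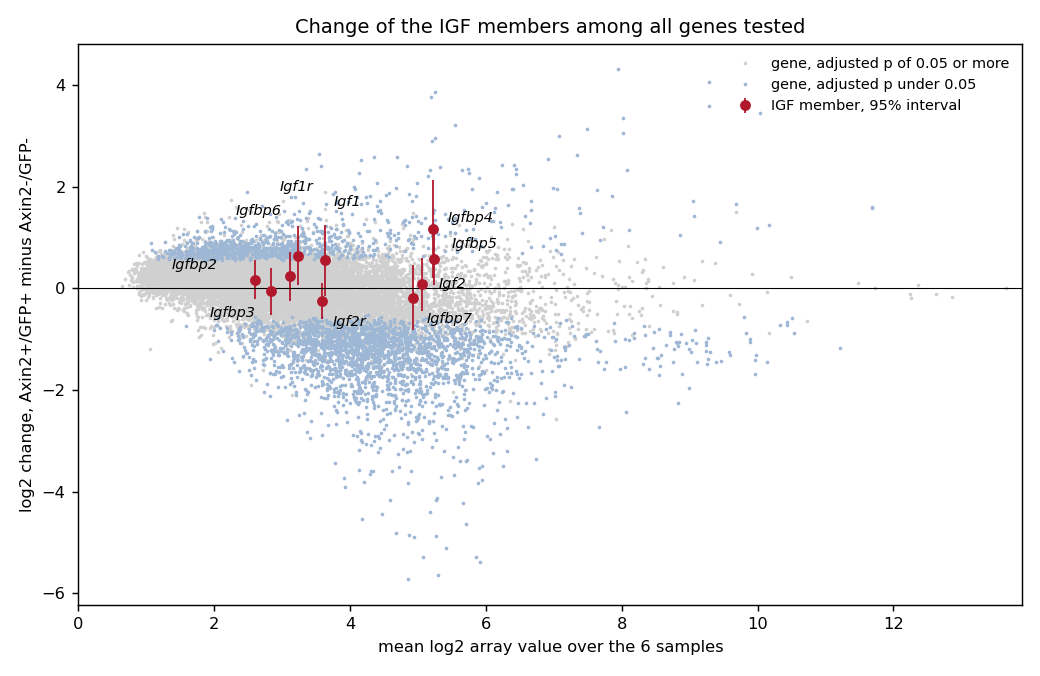
The vertical axis gives the log2 change of Axin2+/GFP+ minus Axin2-/GFP- cells and the horizontal axis the mean log2 array value over the 6 samples, with 1 grey or blue point per gene (blue, adjusted p under 0.05 from limma) and the IGF genes in red with 95% intervals. The IGF genes lie between -0.25 and 1.16, and only the intervals of Igfbp4, Igf1r and Igfbp5 lie wholly above 0.

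The promoters of these 3 genes are shown because their changes were the only ones with an unadjusted p under 0.05 in limma and because the sort rests on Axin2, a target of Wnt signalling whose factors TCF and LEF bind sites with a CTTTG core. Each is the 250 bases before a RefSeq start of the gene on build GRCm38.p6, at chr11:99040994-99041243 (plus strand) for Igfbp4, chr1:72874866-72875115 (minus strand) for Igfbp5 and chr7:67952007-67952256 (plus strand) for Igf1r. The Igfbp4 start lies 1239 bases inside the gene's whole listed span, and the other starts are at the edge of theirs. Capitals mark CTTTG or its reverse complement CAAAG.
Igfbp4: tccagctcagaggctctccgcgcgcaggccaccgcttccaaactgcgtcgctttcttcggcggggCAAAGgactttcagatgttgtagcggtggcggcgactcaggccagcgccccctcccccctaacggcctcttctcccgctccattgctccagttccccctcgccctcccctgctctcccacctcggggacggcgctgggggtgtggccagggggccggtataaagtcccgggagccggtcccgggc
Igfbp5: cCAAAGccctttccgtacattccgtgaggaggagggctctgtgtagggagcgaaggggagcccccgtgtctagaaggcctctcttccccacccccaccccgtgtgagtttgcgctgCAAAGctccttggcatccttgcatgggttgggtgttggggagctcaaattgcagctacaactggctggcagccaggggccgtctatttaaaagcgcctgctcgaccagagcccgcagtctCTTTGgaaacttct
Igf1r: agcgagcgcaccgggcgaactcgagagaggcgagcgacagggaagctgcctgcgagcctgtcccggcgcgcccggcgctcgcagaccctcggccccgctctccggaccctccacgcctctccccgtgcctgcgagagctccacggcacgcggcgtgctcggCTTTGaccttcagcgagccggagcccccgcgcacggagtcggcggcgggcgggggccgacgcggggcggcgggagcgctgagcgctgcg
The core occurred 1 time in the Igfbp4 window, 3 times in the Igfbp5 window and 1 time in the Igf1r window. Such a match is a description of letters and no binding site, since 48.6% of 32851 promoter windows of this length held the core on either strand. Of the 14 windows of the IGF genes 8 held it. A TATAAA box, searched on both strands, stood in the Igfbp4 and Igfbp6 windows and in 12.4% of all windows.

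Among the ligands, Igf1, the growth factor that mediates much of growth hormone's action, had log2 values of 4.63, 3.45 and 3.62 in the Axin2+/GFP+ samples, against 3.62, 3.30 and 3.14 in the Axin2-/GFP- samples. Axin2+/GFP+ replicate 1 stood above all other samples and the groups overlapped. The means were 3.90 ± 0.64 in Axin2+/GFP+ and 3.35 ± 0.24 in Axin2-/GFP- cells (SD, n = 3 each). Igf1 thus differed by 0.55 on the log2 scale (standard error, SE, 0.31, 95% interval -0.15 to 1.24, limma adjusted p = 0.236). Without that replicate the change was 0.18 (adjusted p = 0.546). Macrophages are a known source of Igf1, and of 11 macrophage and monocyte markers 1 was higher (Lyz2) and 1 was lower (Cd68), with a median log2 change of 0.13. Lyz2, which neutrophils express too, made up 89.1% of their summed linear level, and the other markers summed to 119 to 165 in Axin2+/GFP+ and 137 to 193 in Axin2-/GFP- samples. Their part in the Igf1 values was not tested.

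Igf2, the fetal growth factor expressed from the paternal allele in most tissues, had log2 values of 5.28, 5.21 and 4.82 in the Axin2+/GFP+ samples, against 5.41, 4.73 and 4.93 in the Axin2-/GFP- samples. The ranges of the groups overlapped almost wholly. The log2 change was 0.080 (SE 0.23, limma adjusted p = 0.814), and its 95% interval of -0.44 to 0.60 spans folds of 0.738 to 1.51. The level of Igf2 was reached by 0.0840% of the background genes in Axin2+/GFP+ and by 0% in Axin2-/GFP- cells.

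Igf1r, the signalling receptor, had log2 values of 2.96, 3.75 and 3.94 in the Axin2+/GFP+ samples, against 2.85, 3.0 and 2.87 in the Axin2-/GFP- samples. Axin2+/GFP+ replicates 2 and 3 lay above every Axin2-/GFP- sample, and replicate 1 lay among them. The log2 change was 0.64 (SE 0.26, 95% interval 0.060 to 1.22, limma adjusted p = 0.118), a fold of 1.56, and the exact permutation test gave a two-sided p of 0.2. Without Axin2+/GFP+ replicate 1, the sample among the Axin2-/GFP- values, the change was 0.94 and passed (limma adjusted p = 0.0149). It was 0.54 without Axin2+/GFP+ replicate 2 (adjusted p = 0.239) and 0.45 without replicate 3 (adjusted p = 0.261).

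Igf2r, the mannose 6-phosphate receptor that clears IGF2, had log2 values of 3.51, 3.41 and 3.45 in the Axin2+/GFP+ samples, against 3.77, 3.68 and 3.67 in the Axin2-/GFP- samples. All Axin2+/GFP+ samples lay below all Axin2-/GFP- samples, with a gap of 0.16, and the two-sided exact permutation p was 0.1, which is as low as a comparison of 3 with 3 samples can go. The log2 change was -0.25 (SE 0.16, limma adjusted p = 0.278). Its spread was small, with an SD of 0.047 in Axin2+/GFP+ and 0.055 in Axin2-/GFP- samples, and only 2.79% of genes had a smaller SD in Axin2+/GFP+ and 6.65% in Axin2-/GFP- cells. Limma moderates such a spread towards that of other genes, and the methods' t-test, which does not, gave an unadjusted p of 0.00391 and an adjusted p of 0.0649.

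**Figure D2:**
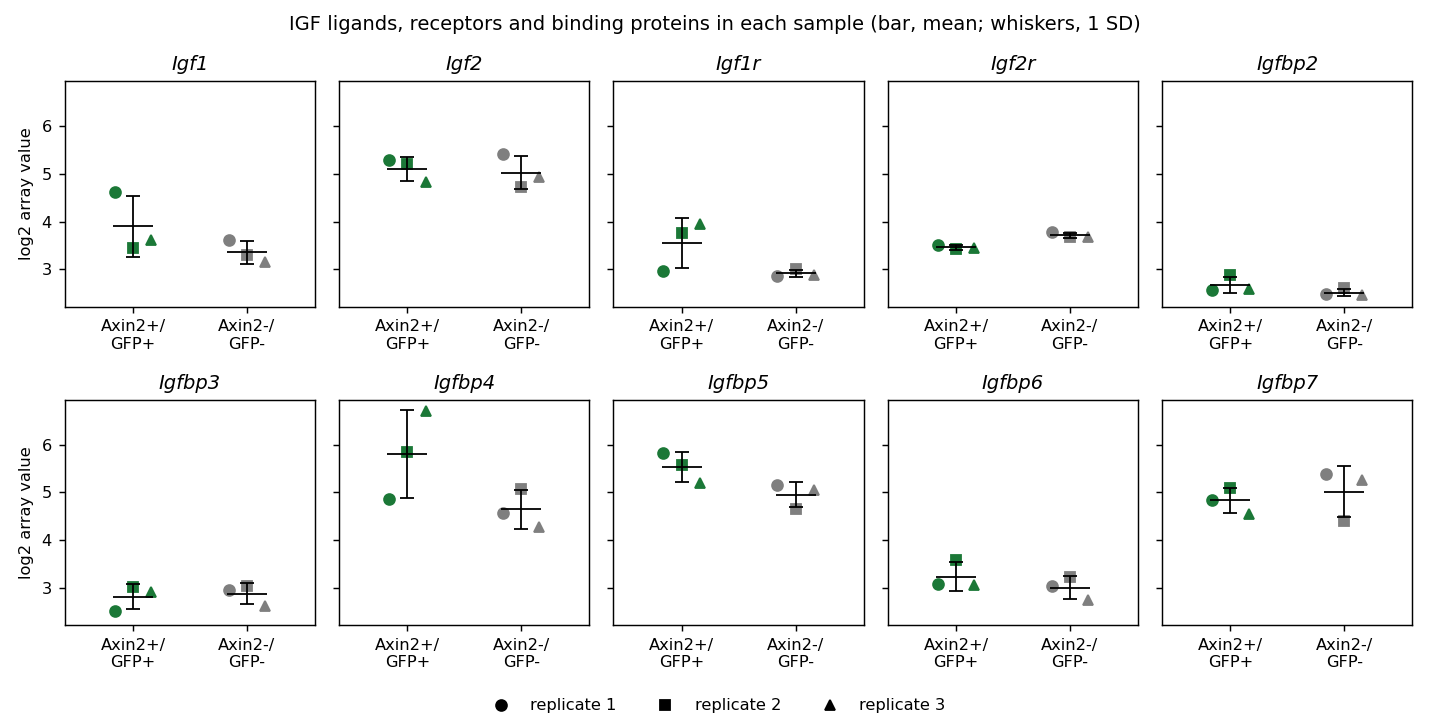
Log2 array values of the 10 IGF genes are plotted by sample, with green symbols for Axin2+/GFP+ and grey symbols for Axin2-/GFP- cells, 1 symbol shape per replicate number, bars for means and whiskers for 1 SD. The groups are separate for Igf2r and Igfbp5 only, and Igfbp4 spreads from 4.85 to 6.71 within the Axin2+/GFP+ samples.

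Of the binding proteins Igfbp4 had the largest change among the 10 genes. Its log2 values were 4.85, 5.84 and 6.71 in the Axin2+/GFP+ samples, against 4.58, 5.07 and 4.27 in the Axin2-/GFP- samples. Axin2+/GFP+ replicates 2 and 3 lay above every Axin2-/GFP- sample, whereas replicate 1 lay below Axin2-/GFP- replicate 2. The means were 5.80 ± 0.93 in Axin2+/GFP+ and 4.64 ± 0.40 in Axin2-/GFP- cells (SD, n = 3 each), a log2 change of 1.16 (SE 0.42, 95% interval 0.20 to 2.13, limma adjusted p = 0.0957), a fold of 2.24, and the exact permutation test gave a two-sided p of 0.2. Ranked by change, it was gene 213 of 19938. Without Axin2+/GFP+ replicate 1 the change was 1.63 and passed (adjusted p = 0.0179), and without replicate 3 it was 0.71 (adjusted p = 0.200).

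Igfbp5, which binds bone mineral and matrix, had log2 values of 5.81, 5.58 and 5.19 in the Axin2+/GFP+ samples, against 5.14, 4.65 and 5.05 in the Axin2-/GFP- samples. Every Axin2+/GFP+ sample lay above every Axin2-/GFP- sample, by 0.042 at the nearest. The log2 change was 0.58 (SE 0.22, 95% interval 0.072 to 1.08, limma adjusted p = 0.109), a fold of 1.49, with an exact permutation p of 0.1, and it ran from 0.43 to 0.75 with 1 sample left out. Igfbp2, its neighbour among the protein-coding genes of chromosome 1, had log2 values of 2.57, 2.87 and 2.59 in Axin2+/GFP+ samples, against 2.48, 2.60 and 2.46 in Axin2-/GFP- samples, and a log2 change of 0.17 (limma adjusted p = 0.493). Igfbp2 lay near background, where its level was reached by 10.1% of those receptor genes in Axin2+/GFP+ and 7.23% in Axin2-/GFP- cells.

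The other binding proteins differed between the sorts by less than their standard error or little more. Igfbp6, which prefers IGF2, had log2 values of 3.07, 3.57 and 3.05 in Axin2+/GFP+ samples, against 3.03, 3.23 and 2.74 in Axin2-/GFP- samples, with a log2 change of 0.23 (SE 0.21, limma adjusted p = 0.449). Igfbp3, the main carrier in serum, had log2 values of 2.51, 3.01 and 2.92 in Axin2+/GFP+ samples, against 2.96, 3.05 and 2.62 in Axin2-/GFP- samples, with a log2 change of -0.064 (SE 0.20, adjusted p = 0.834). For both genes the groups overlapped. Igfbp3 too lay near background in Axin2+/GFP+ cells, where 7.14% of the receptor genes reached its level, against 3.19% in Axin2-/GFP- cells. Igfbp1, the neighbour of Igfbp3 on chromosome 11 and no part of the 10, had a log2 change of 0.16 (adjusted p = 0.612).

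Igfbp7, a secreted relative with low IGF affinity that is abundant in vessels, had log2 values of 4.84, 5.09 and 4.55 in Axin2+/GFP+ samples, against 5.39, 4.40 and 5.25 in Axin2-/GFP- samples. Axin2-/GFP- replicate 2 was the lowest of the 6 samples and the other Axin2-/GFP- samples the highest. The log2 change was -0.18 (SE 0.28, 95% interval -0.82 to 0.45, limma adjusted p = 0.650), and it was 0.0037 without Axin2-/GFP- replicate 1. Of 12 endothelial markers 0 were higher and 1 was lower, Pecam1, an adhesion molecule that blood cells carry too, and 7 lay at the background level in Axin2+/GFP+ and 8 in Axin2-/GFP- cells, taken as at or below the 95th percentile of the receptor genes. Without Pecam1 the summed linear endothelial level was 75.9 to 82.9 in Axin2+/GFP+ and 69.4 to 81.6 in Axin2-/GFP- samples, and its part in the Igfbp7 values was not tested.

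The spread among pools of the same sort was wide for several of these genes. In the Axin2+/GFP+ samples the SD of Igfbp4 exceeded that of 98.1% of genes, that of Igf1 92.9% and that of Igf1r 86.9%. In the Axin2-/GFP- samples the SD of Igfbp7 exceeded that of 95.7% of genes and that of Igf1r only 13.0%. Axin2+/GFP+ replicate 1 was the highest of its group for Igf1, Igf2, Igf2r and Igfbp5 and the lowest for Igf1r, Igfbp2, Igfbp3 and Igfbp4. The suture mesenchyme sums were 2788, 3968 and 2878 in Axin2+/GFP+ replicates 1, 2 and 3, where replicate 1 was close to replicate 3.

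How the arrays were put on 1 scale moved these changes. Quantile normalization gave log2 changes of 1.58 for Igfbp4 (limma adjusted p = 0.0536) and 1.03 for Igfbp5 (adjusted p = 0.0221), and cyclic loess gave 1.61 (adjusted p = 0.0396) and 1.02 (adjusted p = 0.0231), so that Igfbp5 passed in both and Igfbp4 in cyclic loess, against 3.85% of all genes higher after quantile normalization and 3.94% after cyclic loess. Centred on the receptor genes, they were 0.84 and 0.26 and neither passed, whereas Igf2r was lower at -0.57 (adjusted p = 0.0323), on a scale where 3980 of the 19938 genes were lower. The median change over all genes was 0.059 after quantile normalization, 0.011 after cyclic loess and -0.18 after centring on the receptor genes. Set against the mean of the suture mesenchyme list in each array, 1 IGF gene was positive and 9 were negative, and the median over all genes was -0.50. On that scale Igfbp4 was at 0.52 (adjusted p = 0.337), and Igf2r at -0.89 (adjusted p = 0.00763), Igfbp7 at -0.83 (adjusted p = 0.0299) and Igfbp3 at -0.71 (adjusted p = 0.0366) were lower, as were 34.9% of all genes. Of the 18 alternatives 12 can move the change of these genes, and Igfbp4 was the only one of the 10 with a positive change in all 12 and Igf2r the only one with a negative change in all 12. For Igf2r, whose groups did not overlap, leaving out a sample or weighting the arrays could not turn the sign. The centrings lowered the change of every gene. Only quantile normalization (-0.094) and cyclic loess (-0.13) could thus have turned Igf2r.

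**Figure D3:**
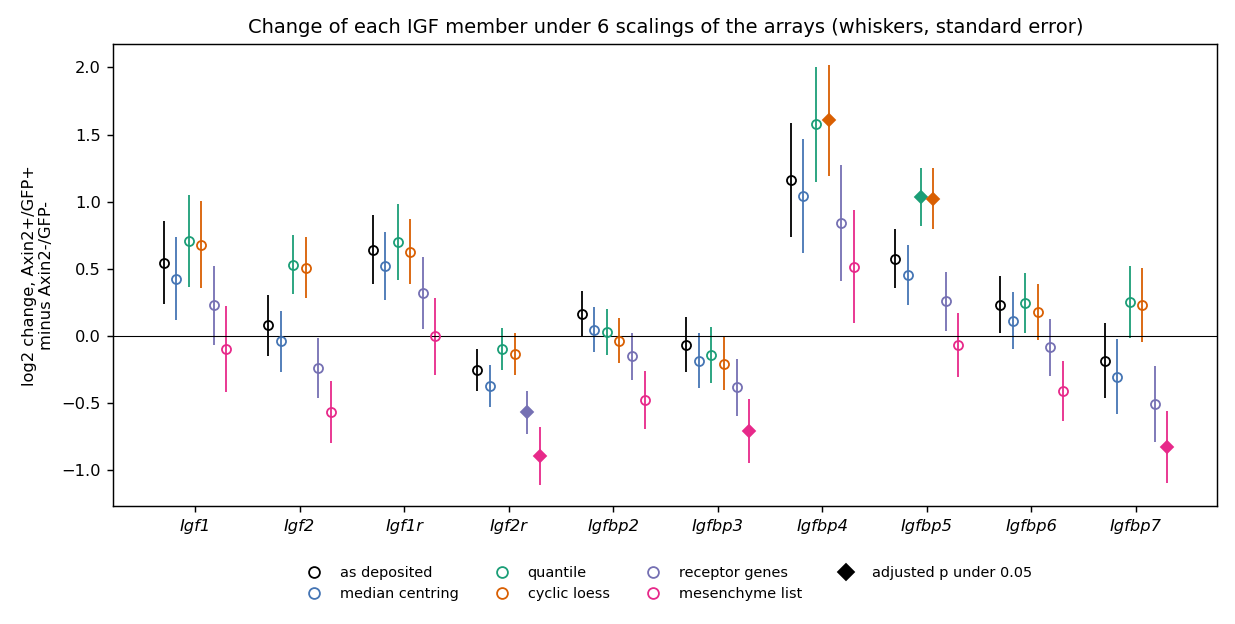
The log2 change of Axin2+/GFP+ minus Axin2-/GFP- cells is plotted for each IGF gene under 6 scalings of the arrays, from the values as deposited (black) to values relative to the suture mesenchyme list (pink), with whiskers of 1 standard error and filled diamonds at an adjusted p under 0.05 from limma. Igfbp4 lies above 0 in all 6 scalings, from 0.52 to 1.61, and Igf2r below 0 in all 6, from -0.094 to -0.89. The centrings lower the change of every gene, so only quantile normalization and cyclic loess could have turned that of Igf2r.

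The wider pathway was read in 66 measured genes that are none of the 10, of which 2 were higher, 10 were lower and 54 did not pass in limma, against 4.64% higher and 11.4% lower among all genes. The extracellular regulators, which carry IGFs or cleave their binding proteins, gave 1 higher and 0 lower of 12. Kazald1, a secreted protein with an IGF-binding domain, had log2 values of 3.73, 3.85 and 2.75 in Axin2+/GFP+ samples, against 2.48, 2.47 and 2.11 in Axin2-/GFP- samples, and a log2 change of 1.09 (SE 0.29, adjusted p = 0.0385). Its call was lost with quantile normalization (1.08), cyclic loess (0.96), median centring (0.97), the receptor genes (0.77) or the suture mesenchyme list (0.45) as the centre, in the methods' t-test (adjusted p = 0.16) and in limma on every feature (adjusted p = 0.0866). It ended too without Axin2+/GFP+ replicate 1 (0.95) or 2 (0.89) or Axin2-/GFP- replicate 1 (1.15), 2 (1.15) or 3 (0.97), so that 5 of 17 alternatives kept it. Htra1, a protease that cleaves IGFBP5 among other targets, was at 1.17 (adjusted p = 0.0782). It was at 0.66 without Axin2+/GFP+ replicate 2 (adjusted p = 0.0898) and passed with the replicate block (adjusted p = 0.0351). Igfals, the acid-labile subunit of the serum IGF complex, was at 0.56 (adjusted p = 0.0647), and at 0.67 without Axin2+/GFP+ replicate 3 (adjusted p = 0.0469), and Stc2, an inhibitor of the PAPP-A proteases, was at 0.37 (adjusted p = 0.205). The list's changes ran from 0.16 to 1.17 with a median of 0.31, close to the 0.30 of the background receptor genes, and 8 of its 12 genes lay at background level in Axin2+/GFP+ and 10 in Axin2-/GFP- cells.

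Below the receptor, of 31 adaptors and members of the PI3K-AKT-mTOR arm 1 was higher, 10 were lower and 20 did not pass, with a median log2 change of -0.30. Over all genes, those with a mean log2 value of 3 or more also were lower more often than higher. Among genes with a mean log2 value from 3 to 5, where 19 of the 31 fall, 4.31% were higher and 20.6% lower, and at 5 or more, where 6 fall, 6.22% were higher and 36.4% lower. Under 3, where the other 6 fall, 4.61% were higher and 1.51% lower. Pik3ca, the catalytic PI3K subunit p110 alpha, had log2 values of 3.33, 3.27 and 3.32 in Axin2+/GFP+ samples, against 4.82, 4.56 and 4.91 in Axin2-/GFP- samples, a log2 change of -1.46 (SE 0.17, adjusted p = 0.00108). Mtor, the kinase at the core of both mTOR complexes, changed by -1.40 (adjusted p = 0.00203) and Rictor, the defining subunit of mTORC2, by -0.99 (adjusted p = 0.00766). These 3 calls held under all 18 alternatives. Akt1, the kinase downstream of PI3K, changed by -1.39 (adjusted p = 0.00416), Foxo1, a transcription factor that AKT holds out of the nucleus, by -1.94 (adjusted p = 0.00229) and Inpp5d, the lipid phosphatase SHIP1 of blood cells, by -2.0 (adjusted p = 0.00127), and these calls ended only in the methods' t-test.

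Irs2, a docking protein of the IGF and insulin receptors, changed by -0.87 (adjusted p = 0.0201), and its call ended in the methods' t-test (adjusted p = 0.0839), after quantile normalization (-0.40) and cyclic loess (-0.39), and without Axin2-/GFP- replicate 1 (-0.85), 2 (-0.92) or 3 (-0.83). Gsk3b, a kinase that AKT inhibits, changed by -1.0 (adjusted p = 0.0269), and its call ended in the methods' t-test (adjusted p = 0.122), in limma on every feature (adjusted p = 0.0644), after quantile normalization (-0.76) and cyclic loess (-0.76), and without Axin2+/GFP+ replicate 1 (-0.99) or 2 (-0.92) or Axin2-/GFP- replicate 2 (-1.03) or 3 (-0.77). The gene that rose was Pik3cb, the subunit p110 beta, at 0.70 (adjusted p = 0.0237). Its call ended when centred on the receptor genes (0.38) or the suture mesenchyme list (0.056, adjusted p = 0.848) and without Axin2+/GFP+ replicate 2 (0.65) or Axin2-/GFP- replicate 1 (0.68), 2 (0.76) or 3 (0.65). In these samples all 11 markers of the B lineage were lower too, and Foxo1 and Inpp5d are known for their roles in B cells; the part of those cells in these changes was not tested.

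**Figure D4:**
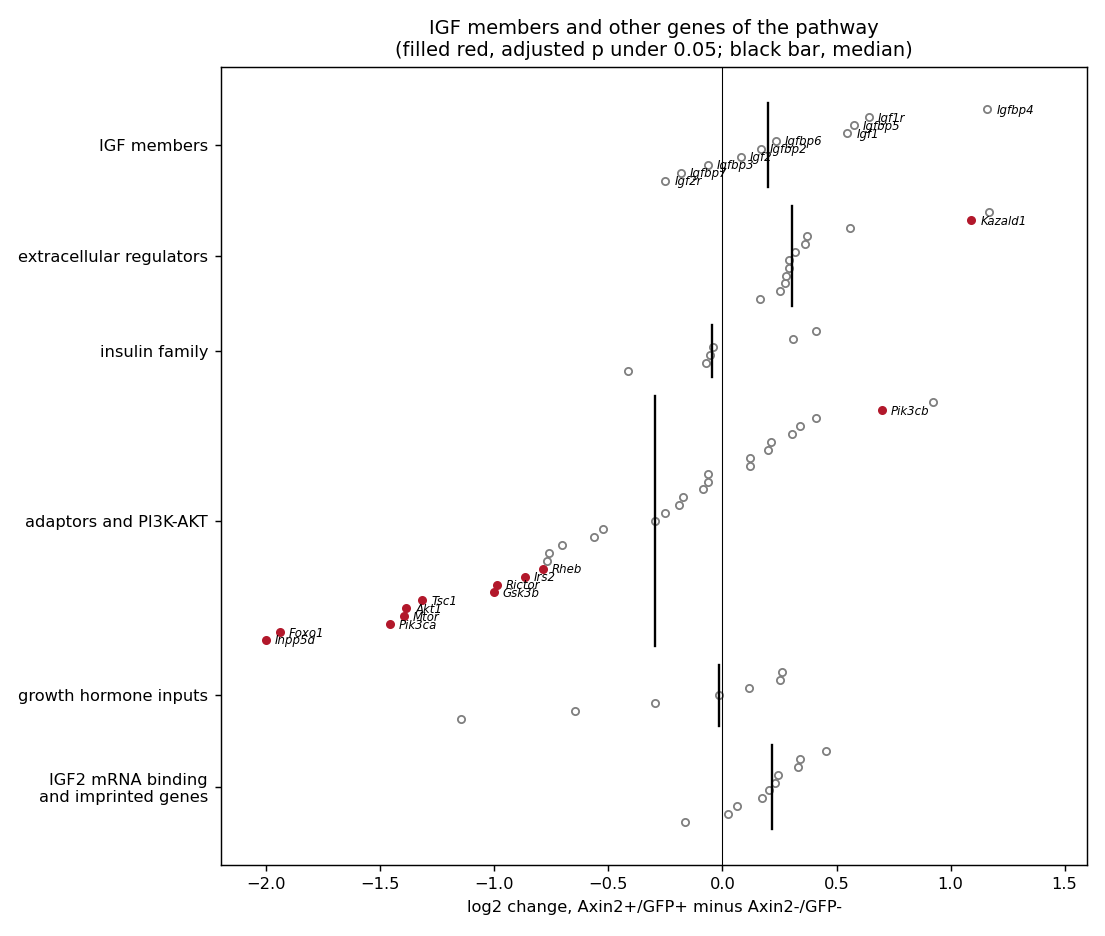
The log2 change of Axin2+/GFP+ minus Axin2-/GFP- cells on the horizontal axis is plotted for the 10 IGF genes and 5 lists of other pathway genes, with 1 point per gene, filled red points for an adjusted p under 0.05 from limma and a black bar at the median. The adaptor and PI3K-AKT list holds 10 of the 10 genes that were lower, while the IGF genes have no filled point.

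The remaining lists had no gene that passed in limma. At an unadjusted p under 0.05, where 16.3% of all genes were higher and 17.6% lower, 0 of 6 insulin family genes were higher and 1 was lower, Insr, the insulin receptor. The brighter of its 2 features was at -0.42 (adjusted p = 0.135) and the other at -1.66 (adjusted p = 0.0307 in limma on every feature, where the brighter had 0.176). Over the 12 alternatives that keep all samples the change of Insr ran from -1.06 to -0.20, and it passed in 3 of them. It did not pass with any 1 sample left out. Insrr, a related receptor, was at 0.41 (adjusted p = 0.167) and Rln1, a relaxin, at 0.31 (adjusted p = 0.308). Of 7 growth hormone inputs 0 were higher and 2 were lower by the same measure, Stat5b at -0.65 (adjusted p = 0.0885) and Jak2 at -1.15 (adjusted p = 0.106), which carry the growth hormone signal to the Igf1 gene in liver. Without Axin2+/GFP+ replicate 1 both passed, Stat5b at -0.86 and Jak2 at -1.61, whereas without replicate 2 neither did, with Stat5b at -0.43 (adjusted p = 0.191) and Jak2 at -0.63 (adjusted p = 0.199). Both passed when centred on the receptor genes, at -0.96 and -1.47, and on the suture mesenchyme list, at -1.29 and -1.79, and Jak2 also with the replicate block (adjusted p = 0.0477). Ghr, the growth hormone receptor, was at 0.25 (adjusted p = 0.407) with a log2 level of 1.65 in Axin2+/GFP+ and 1.40 in Axin2-/GFP- cells, close to the receptor gene medians. Of 10 genes that bind Igf2 mRNA or are imprinted growth genes 0 were higher or lower also at an unadjusted p under 0.05, with Igf2bp1 at 0.34, Plagl1 at 0.33 and Peg3 at 0.45.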

How the data were processed

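Expression was measured in total RNA of 6 pools of sorted suture cells, each on 1 Affymetrix whole-transcript array. The authors deposited the values on the log2 scale for each array feature. RMA and R 3.2.1 appear in the submitters' processing notes. No source used here gives the background step or whether all arrays were normalized together. Values were taken as deposited, and 0 columns stayed unmatched to a sample. The platform's annotation gave the symbols; 19938 genes with a feature of 1 symbol entered, each read by its feature with the highest mean. Each of the 10 IGF genes has 1 feature. Axin2+/GFP+ was compared with Axin2-/GFP- by lmFit and eBayes of limma 3.58.1 (R 4.3.3) without covariates, with Benjamini-Hochberg adjustment over all 19938 genes at 0.05, a procedure tested on simulated data. The IGF genes, lists and alternatives were chosen with earlier results of these data known. All 10 IGF genes are named, and of each pathway list up to 6 genes that passed and up to 3 others with the lowest p. Genes of like pattern were to be named only for IGF genes that passed, and there were 0. The alternatives changed the test (a trend in limma, the t-test of the study's methods, array weights, a replicate block), the scaling (5 ways), the features (a mean log2 value of at least 3, averaged features, all features) or the samples (each left out once). Promoters came from RefSeq on build GRCm38.p6, with 10 of the 10 IGF genes matched by symbol. The number of arrays limits the precision.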

Additional observations from a re-analysis of the deposited data

How the results depend on the processing

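The number of IGF genes called higher, 0 with the values as deposited, was 1 after quantile normalization (Igfbp5), 2 after cyclic loess (Igfbp4 and Igfbp5) and 0 to 2 with 1 sample left out (Igfbp4 and Igf1r without Axin2+/GFP+ replicate 1). The number called lower, also 0, was 1 (Igf2r) with the receptor genes as the centre and 3 (Igf2r, Igfbp3 and Igfbp7) with the suture mesenchyme list, scales on which 3980 and 6954 of all 19938 genes were lower. The filter on dim features left out Igfbp2 and Igfbp3. The 3 arrays per sort limit all of these counts, and the causes of the changes below were not tested.

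Centring on the suture mesenchyme list turned the log2 changes of Igf1 (-0.096), Igf2 (-0.56), Igf1r (-0.0019), Igfbp2 (-0.48), Igfbp5 (-0.067), Igfbp6 (-0.41), Igfals (-0.085), Stc2 (-0.27), Ghr (-0.39), Igf2bp1 (-0.30), Plagl1 (-0.31), Peg3 (-0.19), Insrr (-0.24) and Rln1 (-0.33). Centring on the receptor genes turned those of Igf2 (-0.24), Igfbp2 (-0.15), Igfbp6 (-0.085), Ghr (-0.066) and Rln1 (-0.0080). Median centring turned Igf2 (-0.040), cyclic loess turned Igfbp2 (-0.033) and Igfbp7 (0.23), and quantile normalization turned Igfbp7 (0.26). With 1 sample left out, the change of Igf2 ran from -0.068 to 0.27, that of Igfbp3 from -0.19 to 0.088 and that of Igfbp7 from -0.49 to 0.0037. None of these genes passed the test in the values as deposited.

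Of the 66 other pathway genes 2 were higher as deposited. The count was 1 in the methods' t-test, after median centring, after quantile normalization, with the filter on dim features and in limma on every feature. With the receptor genes or the suture mesenchyme list as the centre it was 0, and it was 0 to 4 with 1 sample left out. The 10 that were lower were 3 in the methods' t-test, 6 after quantile normalization, 17 with the receptor genes as the centre, 30 with the suture mesenchyme list as the centre and 6 to 10 with 1 sample left out. Over all genes 926 were higher and 2265 lower, against 211 and 518 in the methods' t-test, 441 and 2761 after median centring, 768 and 1266 after quantile normalization and 785 and 1468 after cyclic loess. They were 210 and 3980 with the receptor genes as the centre, 104 and 6954 with the suture mesenchyme list, 464 and 2269 with the filter on dim features, and 335 and 1467 in limma on every feature. With 1 sample left out they ran from 239 to 852 higher and from 1376 to 2082 lower.

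Both sorts carry replicate numbers 1 to 3. Deviations from the group means of same-numbered samples correlated at 0.0314, 0.0107 and 0.0530 across genes, and those of differently numbered samples at -0.0505 to 0.0171. The numbers were not taken to pair the samples, but correlations this low cannot exclude that same-numbered sorts shared mice. With the replicate number as a block, 0 IGF genes were higher and 0 lower, 3 of the 66 other pathway genes were higher and 11 lower, and over all genes 643 were higher and 2201 lower.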
